A study of Mus musculus with 9 samples.

Results

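The genes that build the platelet surface and fill its granules were followed across 9 arrays of FDCPmix cells, a mouse multipotent hematopoietic progenitor line grown in self-renewal conditions with IL-3. The 10 genes were Pf4, Ppbp, Itga2b, Itgb3, Gp1ba, Gp1bb, Gp5, Gp9, Clec1b and Vwf. Each probe whose accession belongs to one of them was taken, and all 10 were found, with 11 probes (Vwf has 2), among 16535 named genes and 41174 probes on the array. Cells were transduced with lentivirus (Lentilox backbone) carrying shRNA, short hairpin RNA that lowers its target's messenger RNA, against Gata2 (Gata2 KD) or against Pu.1 (Pu.1 KD), or with the empty vector (EV). All groups went through transduction and sorting of viable GFP+ cells at day 5, so EV controls for the virus and the sort but carries no hairpin, and each group had 3 arrays from separate transductions. Pu.1 is the common name of Spi1, and GATA2 and PU.1 are transcription factors of blood progenitors.

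Megakaryocytes are the bone marrow cells that shed platelets. The receptor complex GPIb-IX-V, made of the products of Gp1ba, Gp1bb, Gp9 and Gp5, binds von Willebrand factor (Vwf) at a damaged vessel wall, and the integrin of Itga2b and Itgb3 then binds fibrinogen and joins platelets to each other. Clec1b encodes CLEC-2, a receptor for podoplanin, and Pf4 and Ppbp encode chemokines stored in alpha granules. Itga2b (CD41) is also carried by early blood progenitors and mast cells, and Vwf by endothelial cells. GATA1, GATA2, RUNX1, FLI1 and TAL1 are known regulators of megakaryocyte genes, while PU.1 is best known for its part in myeloid and B cell development.

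Levels are log2 processed signals relative to the 75th percentile of the array, and a level of 0 is the signal at that percentile. Changes are differences of these log2 levels. They were tested with limma over all 36585 probes that passed the filter on dim probes, and a gene was called when its Benjamini-Hochberg adjusted p was under 0.05. Between 80.4% and 89.6% of the spots on an array were well above background, no spot was saturated, and all 11 probes were well above background on all 9 arrays. The targeted genes moved as labelled. Gata2 was 4.50, 5.04 and 4.86 in EV, 3.61, 2.96 and 3.01 in Gata2 KD and 4.53, 4.87 and 4.55 in Pu.1 KD, and Spi1 was -1.66, -1.86 and -2.07 in EV, -0.66, -0.36 and -0.39 in Gata2 KD and -3.62, -3.64 and -3.52 in Pu.1 KD. Gata2 fell 3.05-fold in Gata2 KD (adjusted p 0.00414) and Spi1 fell 3.32-fold in Pu.1 KD (adjusted p 0.00178), while Spi1 rose 2.62-fold in Gata2 KD (adjusted p 0.0012). EV replicate 3 stood somewhat apart, with a mean correlation over probes with the other arrays of 0.96, against 0.971 to 0.978 for the rest. Without it the number of the 10 genes called stayed at 5 in Gata2 KD, 4 in Pu.1 KD and 5 between the knockdowns.

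The calls among the 10 genes went in both directions in each comparison. In Pu.1 KD the levels of 8 of the 10 nonetheless lay wholly above EV, against 8.61% of all named genes. In Gata2 KD, 5 of the 10 were called, Ppbp, Clec1b and Vwf higher and Gp1ba and Gp5 lower, where 7.15% of all 15808 named genes tested were called (4.21% higher and 2.95% lower). In Pu.1 KD, 4 of the 10 were called, Pf4, Clec1b and Vwf higher and Gp1ba lower, against 3.61% of all named genes (1.45% higher and 2.16% lower). The Pu.1 KD count dropped to 1 or 2 when any one of EV replicates 1 and 2, Gata2 KD replicates 2 and 3 or the Pu.1 KD arrays was left out, Gp1ba being kept each time. Over all named genes, the Pu.1 KD calls also dropped under these settings, from 570 to between 168 and 385. Between the knockdowns, 5 were called, Ppbp higher in Gata2 KD and Pf4, Itga2b, Gp5 and Gp9 lower in Gata2 KD, against 12.4% of all named genes (6.77% higher and 5.6% lower). The median change of the 10 genes was 0.19 in Gata2 KD and 0.63 in Pu.1 KD, beside -0.09 and -0.04 over all named genes. The comparisons of both knockdowns share the EV arrays, so their values are set side by side here and a shared call is not independent. With bulk RNA, a change in the number of cells of a type and a change in RNA per cell cannot be told apart.

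**Figure D1:**
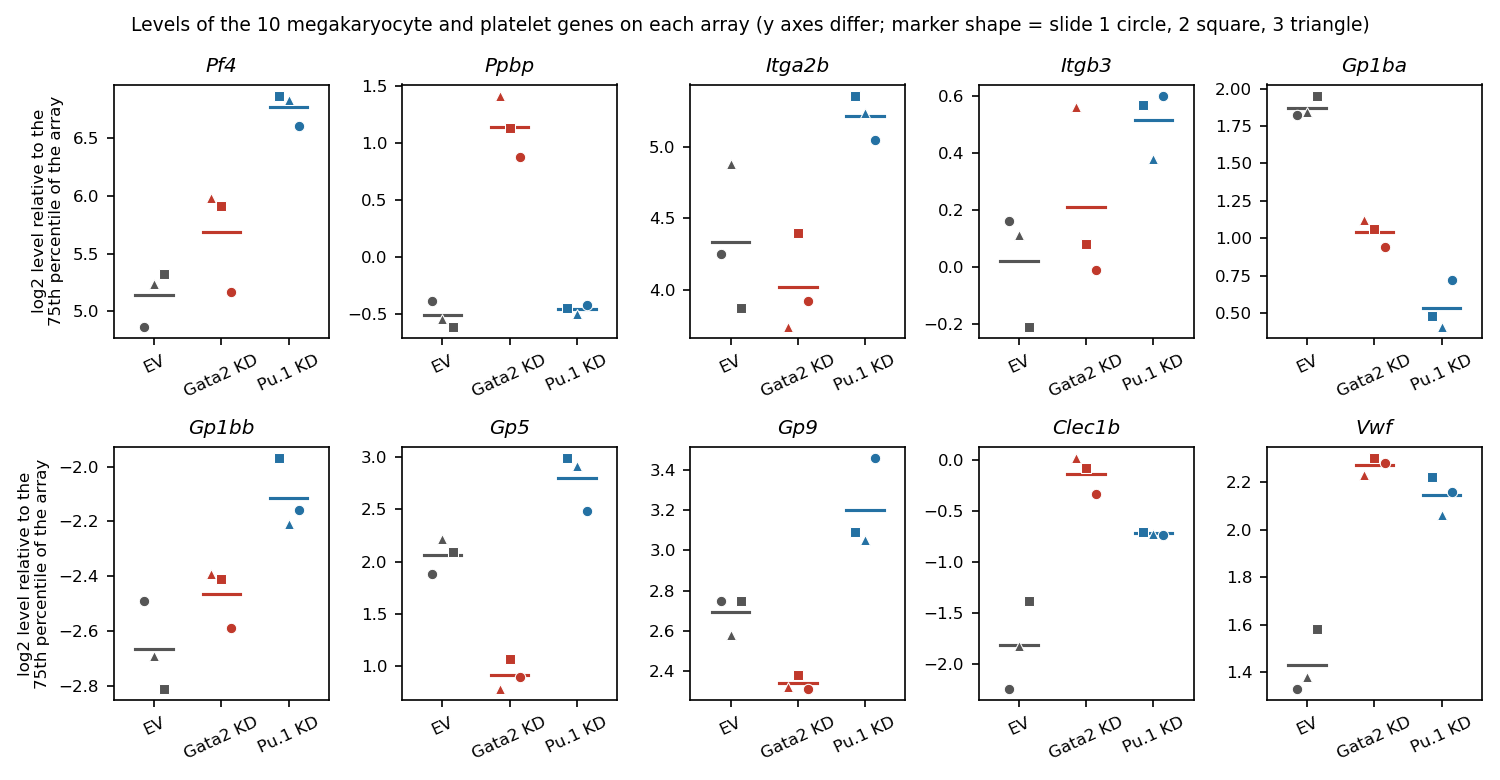
Level of each of the 10 genes on each of the 9 arrays (y axis, log2 relative to the 75th percentile of the array, with its own range in each panel) by group (x axis). Points are arrays, with the marker shape giving the slide, and lines are group means. Gp1ba was lower and Clec1b and Vwf were higher on all 6 knockdown arrays than on the 3 EV arrays, Ppbp was high on the 3 Gata2 KD arrays alone, and Gp5 was lowest in Gata2 KD and highest in Pu.1 KD.

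The chemokine genes Pf4 and Ppbp lie next to each other on chromosome 5 in the RefSeq gene order and behaved differently. Pf4 encodes platelet factor 4, and Ppbp encodes pro-platelet basic protein, the precursor of the neutrophil attractant CXCL7. The 250 bases before each start site (RefSeq, GRCm38.p6) are printed because these are neighbouring genes with different responses; capitals mark matches to GGAAGTG, the motif the study used for PU.1, read here on the opposite strand as CACTTCC. The Pf4 stretch is chr5:90772185-90772434 and the Ppbp stretch is chr5:90768268-90768517, both on the plus strand.
Pf4: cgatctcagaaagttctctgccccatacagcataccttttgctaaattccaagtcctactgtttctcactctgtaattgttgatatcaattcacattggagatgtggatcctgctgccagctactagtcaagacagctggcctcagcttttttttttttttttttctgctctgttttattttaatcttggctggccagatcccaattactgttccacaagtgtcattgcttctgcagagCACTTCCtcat
Ppbp: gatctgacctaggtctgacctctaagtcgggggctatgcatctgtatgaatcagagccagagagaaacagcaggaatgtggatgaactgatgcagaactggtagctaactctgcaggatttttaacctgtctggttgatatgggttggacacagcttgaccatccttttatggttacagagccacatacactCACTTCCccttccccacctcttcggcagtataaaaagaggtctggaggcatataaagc

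Pf4 was 4.87, 5.24 and 5.32 in EV, 5.98, 5.91 and 5.17 in Gata2 KD and 6.86, 6.83 and 6.60 in Pu.1 KD. All 3 Pu.1 KD arrays lay above all other arrays, and the Gata2 KD arrays overlapped EV because replicate 3 lay within the EV range. Pf4 rose 3.07-fold in Pu.1 KD (log2 change 1.62 ± 0.24, SE; adjusted p 0.0124), and its change in Gata2 KD was 0.54 ± 0.24 (adjusted p 0.351). The direct comparison placed Pf4 in Gata2 KD 2.1-fold below its level in Pu.1 KD (adjusted p 0.025). These Pf4 calls depended on single arrays. The rise in Pu.1 KD had an adjusted p of 0.0662 without Pu.1 KD replicate 1 and 0.0579 without Pu.1 KD replicate 2. The difference between the knockdowns had adjusted p values of 0.0501 to 0.0967 when any one of Gata2 KD replicates 2 and 3 or the 3 Pu.1 KD arrays was left out.

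Ppbp was -0.39, -0.54 and -0.61 in EV, 1.41, 1.13 and 0.88 in Gata2 KD and -0.45, -0.50 and -0.42 in Pu.1 KD. The 3 Gata2 KD arrays were high, and the Pu.1 KD arrays lay inside the EV range. Ppbp rose 3.14-fold in Gata2 KD (log2 change 1.65 ± 0.16, SE; adjusted p 0.000537). In Pu.1 KD its change was 0.05, with a 95% interval from -0.31 to 0.42. It was 3.02-fold higher in Gata2 KD than in Pu.1 KD (adjusted p 0.00037), so the responses of Ppbp to the knockdowns differed by a direct test. Both calls held under all 20 alternative settings of the analysis. The sums of neutrophil and of monocyte and macrophage markers, given below, also rose in Gata2 KD, and the part of such cells in the Ppbp rise was not tested.

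The integrin genes moved less in relation to their spread. Itga2b, the alpha chain, was 4.25, 4.88 and 3.87 in EV, 3.74, 4.40 and 3.92 in Gata2 KD and 5.36, 5.24 and 5.05 in Pu.1 KD. The EV arrays were widely spread, and all 3 Pu.1 KD arrays lay above them. Itga2b in Gata2 KD was 2.3-fold below its Pu.1 KD level (log2 change -1.20 ± 0.28, SE; adjusted p 0.0297). Its change was 0.89 ± 0.28 in Pu.1 KD against EV (adjusted p 0.182) and -0.31 ± 0.28 in Gata2 KD (adjusted p 0.809), neither of which passed the test. The difference between the knockdowns was lost when any one of Gata2 KD replicates 1 and 3 or the Pu.1 KD arrays was left out (adjusted p 0.069 to 0.112). Itgb3, the beta chain, was not called in any comparison, with changes of 0.19 (95% interval -0.25 to 0.62) in Gata2 KD and 0.50 (0.06 to 0.93) in Pu.1 KD. Its Pu.1 KD arrays, at 0.38 to 0.60, nonetheless lay above its EV arrays, at -0.21 to 0.16.

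**Figure D2:**
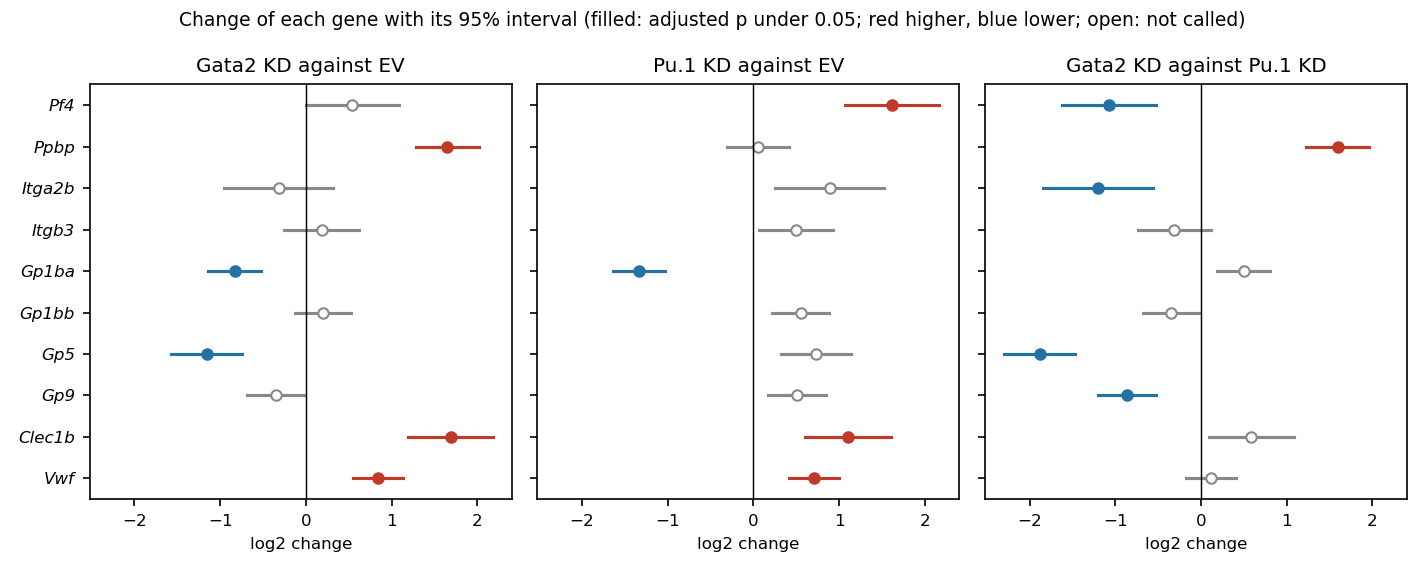
Log2 change of each of the 10 genes (x axis) in each knockdown against EV and between the knockdowns, with the limma 95% interval as a bar and n = 3 arrays a group. Filled points passed an adjusted p of 0.05 (red higher, blue lower) and open points did not; Gp5 ran from -1.15 in Gata2 KD to 0.73 in Pu.1 KD, and Gp1ba was below 0 in both.

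The 4 genes of the GPIb-IX-V complex showed 3 different patterns. Gp1ba encodes the chain that carries the binding site for Vwf, and Gp5 a chain that thrombin cleaves. Their 250 bases before the start site (RefSeq, GRCm38.p6) are printed because both genes were called in Gata2 KD and both stretches hold the letters AGATAA or TGATAA of the GATA motif, in capitals, or their reverse complements TTATCT and TTATCA where the match is on the opposite strand. The Gp1ba stretch is chr11:70638872-70639121 on the plus strand, with matches 104 and 51 bases before the start site. The Gp5 stretch is chr16:30310782-30311031 on the minus strand, with matches 93 and 77 bases before it. Only these letters are marked, not the wider form WGATAR (W for A or T, R for A or G) that the study also used.
Gp1ba: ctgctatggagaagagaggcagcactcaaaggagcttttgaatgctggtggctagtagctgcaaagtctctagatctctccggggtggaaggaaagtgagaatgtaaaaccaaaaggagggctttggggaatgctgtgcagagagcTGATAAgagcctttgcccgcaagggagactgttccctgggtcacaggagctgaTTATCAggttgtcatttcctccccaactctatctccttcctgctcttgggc
Gp5: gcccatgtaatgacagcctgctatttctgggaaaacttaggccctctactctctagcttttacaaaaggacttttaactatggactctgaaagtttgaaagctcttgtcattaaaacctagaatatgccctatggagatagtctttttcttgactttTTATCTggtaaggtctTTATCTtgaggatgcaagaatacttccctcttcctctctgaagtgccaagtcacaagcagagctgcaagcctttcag

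Gp1ba was 1.82, 1.84 and 1.95 in EV, 1.12, 1.06 and 0.94 in Gata2 KD and 0.48, 0.41 and 0.72 in Pu.1 KD. The 3 groups did not overlap, and EV was highest. Gp1ba fell 1.78-fold in Gata2 KD (log2 change -0.83 ± 0.13, SE; adjusted p 0.00877) and 2.52-fold in Pu.1 KD (-1.34 ± 0.13; adjusted p 0.00281), and was the one gene of the 10 called lower in both. The fall in Pu.1 KD held under all 20 alternatives, and the fall in Gata2 KD under 18 of 20, missing the threshold with arrays scaled to the median (adjusted p 0.0667) and with the replicate number as a block (0.0507). The difference of 0.50 between the knockdowns did not pass the test (adjusted p 0.0552), but did under 5 alternatives, the slide as a block among them (0.0425).

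Gp5 was 1.88, 2.22 and 2.09 in EV, 0.78, 1.07 and 0.89 in Gata2 KD and 2.99, 2.92 and 2.48 in Pu.1 KD. Again the groups did not overlap, but here EV lay in the middle. Gp5 fell 2.22-fold in Gata2 KD (log2 change -1.15 ± 0.18, SE; adjusted p 0.00727). Its change in Pu.1 KD was 0.73 ± 0.18 (adjusted p 0.0871), which passed under 4 alternatives, the slide as a block among them (0.0355). The Gp5 level in Gata2 KD was 3.69-fold below that in Pu.1 KD (adjusted p 0.000286), the widest difference between the knockdowns among the 10 genes.

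Gp9 encodes a small chain that the complex needs to reach the cell surface. It was 2.75, 2.58 and 2.75 in EV, 2.32, 2.38 and 2.31 in Gata2 KD and 3.09, 3.05 and 3.46 in Pu.1 KD. The order of its groups was that of Gp5, again with no overlap, at smaller differences. The changes against EV were -0.35 ± 0.15 (adjusted p 0.313) and 0.51 ± 0.15 (adjusted p 0.147), and Gata2 KD was 1.82-fold below Pu.1 KD (adjusted p 0.00681). Gp1bb, the chain bound to the product of Gp1ba, was not called in any comparison, with levels of -2.81 to -2.49 in EV, -2.59 to -2.39 in Gata2 KD and -2.21 to -1.97 in Pu.1 KD. In the annotation Gp1bb overlaps Septin5, and whether its probe reads transcripts of both genes was not tested.

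Clec1b and Vwf were higher in both knockdowns. The stretch before the Clec1b start site, chr6:129397047-129397296 on the plus strand (RefSeq, GRCm38.p6), is printed to set a gene that rose beside Gp1ba, which fell with the same motif letters; its TGATAA, in capitals, begins 189 bases before the start site. A second match, AGATAA, begins 38 bases after the start site and lies beyond the stretch printed.
Clec1b: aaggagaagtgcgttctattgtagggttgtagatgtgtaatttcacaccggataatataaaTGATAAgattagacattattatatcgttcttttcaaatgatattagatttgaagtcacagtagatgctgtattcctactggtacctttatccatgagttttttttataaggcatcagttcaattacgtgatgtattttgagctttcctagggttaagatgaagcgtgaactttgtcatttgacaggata

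Clec1b was -2.24, -1.82 and -1.38 in EV, 0.02, -0.08 and -0.33 in Gata2 KD and -0.70, -0.72 and -0.73 in Pu.1 KD. All 6 knockdown arrays lay above EV, whose own arrays differed from each other more than those of either knockdown. Clec1b rose 3.22-fold in Gata2 KD (log2 change 1.69 ± 0.22, SE; adjusted p 0.00263), and this held under all 20 alternatives. The rise in Pu.1 KD was 2.15-fold (1.1 ± 0.22; adjusted p 0.0377) and was less secure. It was not called under 12 of the 20 alternatives, with adjusted p values from 0.013 to 0.151 over all of them. Those 12 include leaving out any one array other than EV replicate 3 (adjusted p 0.0598 to 0.151). In the annotation Clec1b overlaps Clec12b, and whether the probe separates them was not tested.

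Vwf, on the probe that stands for the gene, was 1.33, 1.38 and 1.58 in EV, 2.23, 2.30 and 2.28 in Gata2 KD and 2.22, 2.06 and 2.16 in Pu.1 KD. Both knockdown groups lay above EV and close to each other. Vwf rose 1.79-fold in Gata2 KD (log2 change 0.84 ± 0.13, SE; adjusted p 0.00623) and 1.64-fold in Pu.1 KD (0.71 ± 0.13; adjusted p 0.0252). The knockdowns differed by 0.12, with a 95% interval from -0.17 to 0.41. The second Vwf probe gave changes of 0.76 (adjusted p 0.0202) and 0.77 (adjusted p 0.0322), also called in both. As with Clec1b, the Pu.1 KD call was the weaker. It was lost when any one array other than EV replicate 3 and Gata2 KD replicate 1 was left out (adjusted p 0.0573 to 0.124). The second probe's call in Gata2 KD was lost without EV replicate 1 (0.0681), EV replicate 2 (0.0754), Gata2 KD replicate 1 (0.0752) or Gata2 KD replicate 2 (0.103), and its call in Pu.1 KD when any one array other than EV replicate 3 was left out (0.0541 to 0.137).

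Each of the 3 slides held 1 array of each group, so the same differences could be read within a slide. In Pu.1 KD, 9 of the 10 genes kept one sign on all 3 slides, Pf4 at 1.54 to 1.72, Clec1b at 0.68 to 1.52, Vwf at 0.63 to 0.82 and Gp1ba at -1.47 to -1.11. The exception was Ppbp, at -0.03 to 0.17. In Gata2 KD, 7 of the 10 kept one sign, among them Ppbp (1.27 to 1.94), Clec1b (1.30 to 1.91), Gp5 (-1.44 to -0.99) and Gp1ba (-0.89 to -0.72). The other 3, Itga2b (-1.14 to 0.53), Itgb3 (-0.17 to 0.45) and Gp1bb (-0.10 to 0.39), were not called. The share of all named genes that kept one sign was not counted, so these counts have no baseline and are a description only. Between the knockdowns, Gp5 differed by -2.13 to -1.60 and Ppbp by 1.30 to 1.91 within slides. With the slide as a block in the fit, 5, 5 and 6 of the 10 genes were called in the 3 comparisons, and calls also rose over the whole array, to 10.2%, 6.55% and 17.6% of all named genes. Every call named above was kept, with Gp5 added in Pu.1 KD and Gp1ba added between the knockdowns.

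**Figure D3:**
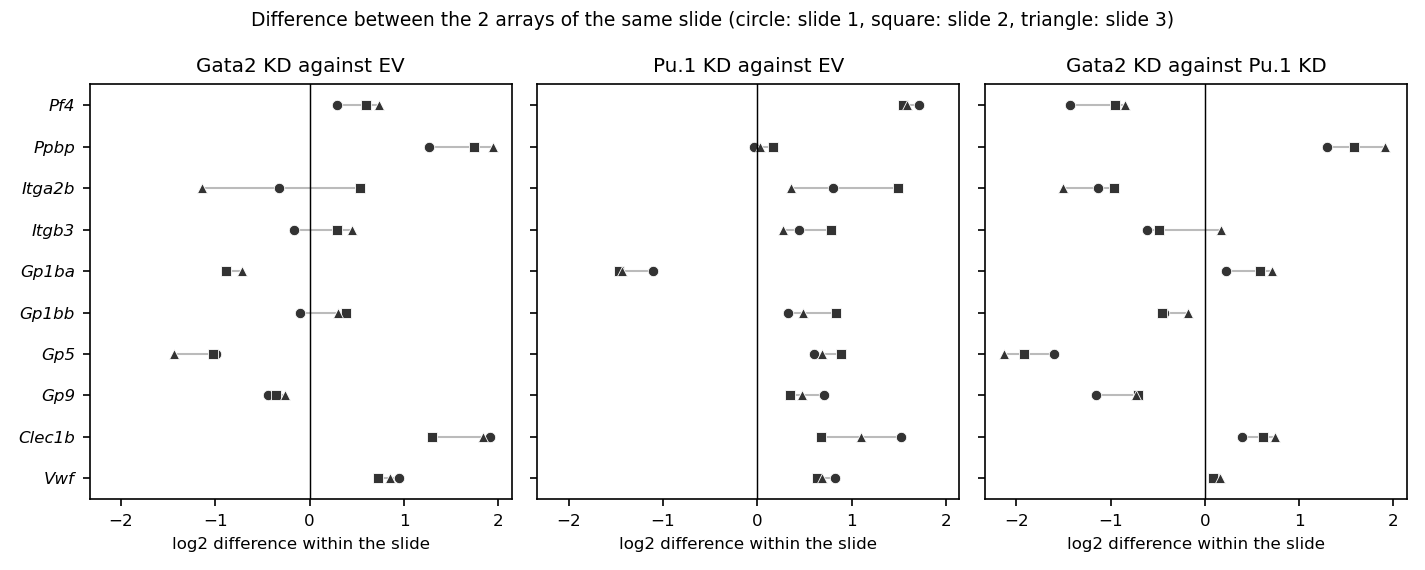
Log2 difference between the arrays of a pair of groups on the same slide (x axis) for each of the 10 genes, with one marker per slide and a grey line over their range. Markers of Gp5 lay wholly below 0 in Gata2 KD and wholly above 0 in Pu.1 KD, while those of Itga2b in Gata2 KD ran from -1.14 to 0.53 across 0.

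Without regard to the fit, the levels of 9 of the 10 genes did not overlap between Pu.1 KD and EV, 8 higher in Pu.1 KD and 1 lower. Over all named genes tested, 20.6% did not overlap in this comparison, 8.61% with Pu.1 KD higher and 11.9% with it lower. In Gata2 KD 6 of 10 did not overlap, 3 higher and 3 lower, against 23.1% of all named genes (9.5% higher and 13.6% lower). Between the knockdowns 9 of 10 did not overlap, 4 higher and 5 lower in Gata2 KD, against 30.1% (14.3% higher and 15.8% lower).

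Of the 8 genes whose promoter (250 bases before to 50 bases after the start site) was in the RefSeq table, 4 held AGATAA or TGATAA on either strand: Pf4 (37 bases after the start site, beyond the stretch printed), Gp1ba, Gp5 and Clec1b. That is 50%, beside 18.6% of all 32851 promoters in the table and 19% of the 63 promoters of other megakaryocyte genes. Of the 4, in Gata2 KD Gp1ba and Gp5 fell, Clec1b rose and Pf4 was not called, so a match went with no single direction. GGAAGTG was in 2 of 8 (25%), Pf4 and Ppbp, of which Pf4 was called in Pu.1 KD and Ppbp was not. It was in 11% of all promoters and in 6.35% of the 63 promoters of other megakaryocyte genes. TGACTCA or TGAGTCA, the core shared by AP-1 and NF-E2, was in 0 of 8, in 5.2% of all promoters and in 3.17% of the 63. A match to these letters is a description of the sequence and not evidence that a factor binds there. AGATAA and TGATAA differ in their first letter, and no match in these genes overlapped another. They are narrower than WGATAR, and matches ending in G (AGATAG or TGATAG) were not counted in any set of promoters. Gp1ba, Gp5 and Gp1bb each hold such a match, so the shares above do not measure WGATAR. Itgb3 and Vwf had no entry in the table.

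A wider list of 69 other megakaryocyte and platelet genes was set beside the 10, of which 60 had a tested probe and 56 were well above background on all arrays. In Gata2 KD 17 of the 60 were called (28.3%), 5 higher and 12 lower. In Pu.1 KD 7 were called (11.7%), 4 higher and 3 lower. Between the knockdowns 23 were called (38.3%), 8 higher and 15 lower in Gata2 KD. The shares of all named genes are those given above for the same comparisons.

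Among 12 transcription factors of the lineage, 5 fell in Gata2 KD and none rose, where 2.95% of all named genes were called lower and 4.21% higher. The 5 were Gfi1b (log2 change -1.33 ± 0.21, SE; adjusted p 0.00741), Meis1 (-1.28), Gata1 (-1.08), Zfpm1 (-0.86), which encodes the GATA1 partner FOG1, and Tal1 (-0.64). Of the 5, Tal1 lay closest to the threshold (adjusted p 0.0367). Zfpm1 and Tal1 are named to complete the count, after their values were seen. In Pu.1 KD the same 5 had changes above 0 that did not pass the test (Gfi1b 0.41, Gata1 0.42), and Runx1 was the single factor called, lower by -1.04 (adjusted p 0.037).

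Of 18 receptors, 7 were called between the knockdowns, 1 higher and 6 lower in Gata2 KD, and 11 were not, against 12.4% of all named genes called. In Pu.1 KD against EV 4 of the 18 rose and none fell, where 1.45% of all named genes were called higher. Among the 4 were Tbxa2r, the thromboxane receptor (log2 change 0.98 ± 0.13, SE, adjusted p 0.00929), Pear1 (0.91) and Treml1 (0.86, adjusted p 0.0492, close to the threshold). In Gata2 KD the thrombin receptor F2r (-1.33), the ADP receptor P2ry1 (-1.23) and Tbxa2r (-0.61, adjusted p 0.0378) fell. Selp, which encodes the granule membrane protein P-selectin, rose (0.61). Tbxa2r was thus called in opposite directions, and between the knockdowns it was lower in Gata2 KD by -1.59 (adjusted p 0.000144).

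Granule and signalling genes were mixed. Thbs1, which encodes thrombospondin 1, rose in Gata2 KD by 3.08 ± 0.16 (SE; adjusted p 2.8e-05), and F13a1, the A chain of coagulation factor XIII, by 1.26. Both are also made by monocytes and macrophages. Of the same 12 granule and secreted proteins, Angpt1, which encodes angiopoietin 1, fell by -1.16 (adjusted p 0.0133) and Rab27b, which encodes a GTPase of granule transport, by -0.96 (adjusted p 0.0409), both named after their values were seen. Lat, an adaptor downstream of the collagen receptor, fell in Gata2 KD by -1.95 ± 0.16 (adjusted p 0.000259). Syk, a kinase of the same pathway and of CLEC-2 signalling, rose by 1.33 and Alox12, the platelet lipoxygenase, by 1.35. Of the 18 cytoskeleton, signalling and enzyme genes, 4 were called in Gata2 KD, 2 higher and 2 lower, against 7.15% of all named genes. The other gene called lower was Plek (-0.72, adjusted p 0.0328), named after its values were seen. In Gata2 KD the mast cell marker sum, given below, also fell and the neutrophil and monocyte sums rose. The part of such cells in the changes of Lat and Syk was not tested. In Pu.1 KD no granule gene of 12 was called, and Pstpip2 (-1.51) and the kinase gene Lyn (-1.17), both also active in myeloid cells, fell. Over the alternatives the number of the 60 genes called ran from 7 to 24 in Gata2 KD, from 1 to 10 in Pu.1 KD and from 20 to 29 between the knockdowns.

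**Figure D4:**
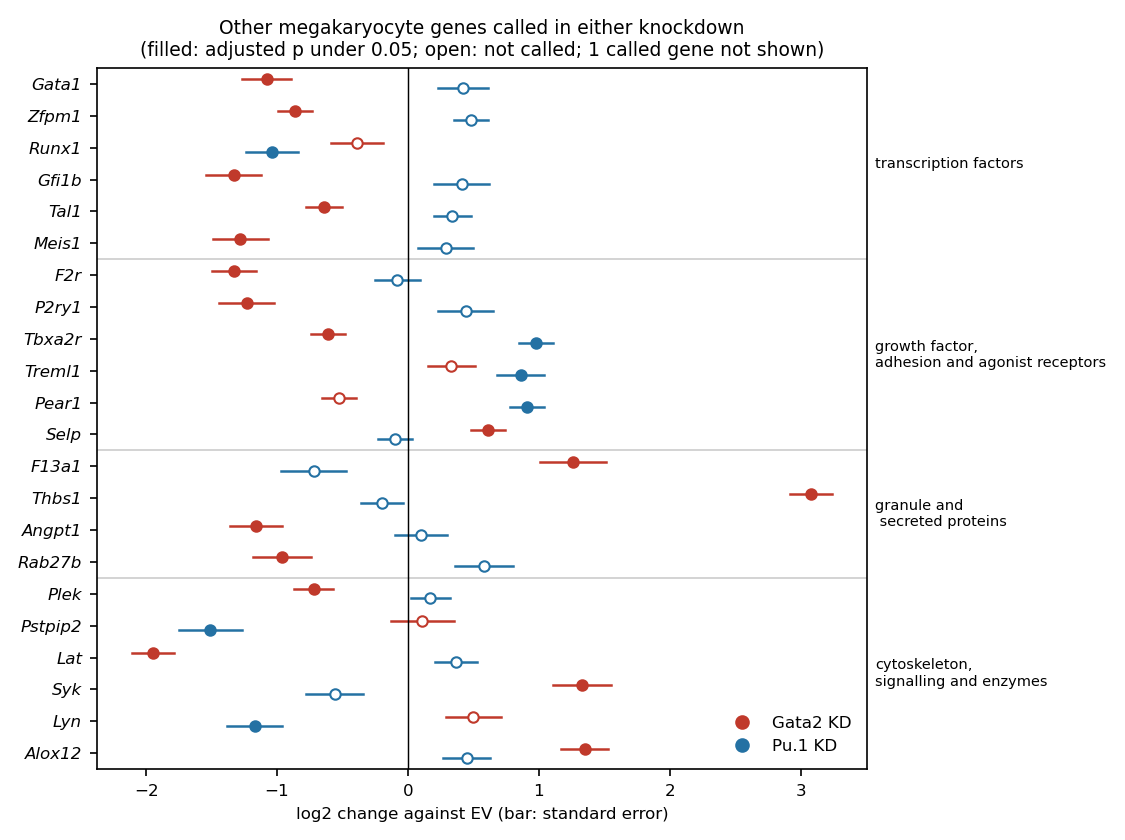
Log2 change against EV (x axis, with the standard error as a bar, n = 3 arrays a group) of the other megakaryocyte genes called in Gata2 KD or Pu.1 KD, grouped by role, with 1 called gene not shown. Filled points passed an adjusted p of 0.05 and open points did not; in the transcription factor group the 5 filled Gata2 KD points lie at -1.33 to -0.64, and Tbxa2r lies at -0.61 in Gata2 KD and 0.98 in Pu.1 KD.

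Markers of other blood cells moved with the knockdowns. Levels of a marker list were summed on the linear scale with the signal at the 75th percentile of the array as 1, so the brightest probes weigh most, and the genes called against EV were counted. For 9 neutrophil genes the sum was 184 to 202 in EV, 607 to 830 in Gata2 KD, where 9 were called higher, and 97.7 to 115 in Pu.1 KD, where 7 were called lower. For 7 monocyte and macrophage genes it was 4.38 to 5 in EV, 36.5 to 40.2 in Gata2 KD (4 called higher) and 3.3 to 4 in Pu.1 KD (1 called lower). For 9 mast cell and basophil genes it was 113 to 130, 23.4 to 25.1 and 72.7 to 80.7 in the same order, with 6 called lower in Gata2 KD and 3 lower and 1 higher in Pu.1 KD. Both knockdowns were thus apart from EV in the sums of all 3 lists, as the genes called in each were, and the part of other cell types in those results was not tested. In Pu.1 KD the 1 monocyte and macrophage gene called lower was Adgre1 (-0.99), the brightest of its list in EV (mean level 1.1). The others of that list were not called. For 8 erythroid genes the sum was 10.8 to 11.3, 8.57 to 12.3 and 16.9 to 19.4. Klf1 and Epor, the receptor of erythropoietin, were called lower in Gata2 KD (-1.76 and -0.65) and higher in Pu.1 KD (0.84 and 0.87), and the other 6 were not called in either. The sums for 7 endothelial genes (2.69 to 3.21, 2.63 to 3.64 and 2.86 to 3.15) overlapped between groups. Tie1 (mean level 0.3 in EV) and Pecam1 (0.15) were the brightest of these genes, and Cdh5 (-5.09) and Tek (-4.19) the dimmest. Vwf is also made by endothelial cells, and the part of such cells in its change was not tested. The sums for 5 lymphoid genes (1.56 to 2.42, 1.55 to 2.43 and 1.57 to 2.4) also overlapped, and no gene of either list was called. The sums for 8 progenitor genes (53.8 to 71.7, 61.7 to 75 and 49 to 59.5) overlapped between each knockdown and EV although single genes moved in opposite directions. In Gata2 KD Cd34 (2.17) and Kit (0.75) were called higher and Spink2 (-2.59), Gata2 itself and Meis1 lower. In Pu.1 KD Kit was called higher (1.41) and Cd34 lower (-0.92). These marker genes are named after their values were seen. Of 13 megakaryocyte genes, the 10 described here among them, 3 were called higher and 2 lower in Gata2 KD and 5 higher and 1 lower in Pu.1 KD. The shares of all named genes called were 7.15% and 3.61%. The sum for the 13 genes was 68.4 to 87.4 in EV, 69.7 to 101 in Gata2 KD and 159 to 186 in Pu.1 KD. Pf4 (mean level 5.14 in EV) and Itga2b (4.33) were its brightest genes and weigh most. Of the 8 progenitor markers 7 were well above background on every array, and no marker of any list was below background on all 9.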

How the data were processed

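Total RNA (150 ng) from sorted FDCPmix cells was labelled with Cy3 and hybridized to single-colour Agilent 4x44K arrays. For each array the authors deposited Feature Extraction 10.1.1.1 intensities (processed signal, median signal and local background), not normalized between arrays, and 1 table of log2 values for the 9 arrays, which tracks the log2 median signal and whose normalization is not given in the sources used here. The processed signal is background-subtracted, so dim probes depend most on that step.

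Each array's 75th percentile was subtracted from its log2 processed signals. Control spots were left out, flagged spots (47 to 96 per array) were set missing, and spots of a probe were averaged. A probe was tested when well above background on at least 3 of 9 arrays with 2 or more values in each group. Accessions were matched to the RefSeq table of GRCm38.p6, which named 23374 probes; the array design is annotated to mm8, so coordinates are given only for RefSeq promoters. A gene stands by its probe of highest mean level. The groups were fitted together on all 9 arrays in limma 3.58.1 under R 4.3.3 (lmFit, contrasts.fit, eBayes; two-sided), and the steps were checked on simulated data. The precision is limited by 3 arrays a group. Replicates are separate transductions of 1 cell line.

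The 10 genes, the other lists, the motifs and the tests were chosen with earlier results of these data known. Named beyond the 10 genes were the targeted genes with Gata1, up to 5 called genes of the wider list in each direction and comparison with the largest changes, and the 3 genes whose levels were most like those of each gene called against EV. The lists of cell type markers were neutrophil, monocyte and macrophage, mast cell and basophil, erythroid, endothelial, lymphoid, progenitor and megakaryocyte genes. Of the wider list, Gp6, Mmrn1, Nbeal2, Tubb1, Myl9, Bin2 and Kalrn matched no probe and P2ry12 was not tested, so they are not analysed here. Some genes of that list enter its counts and are not reported here by name. The alternatives were blocks for the replicate number or for the slide, normexp with an offset of 50 (on the median signal), the deposited log2 table, scaling to the median, quantile normalization, keeping flagged spots, testing every probe or those well above background on all 9 arrays, trended and robust eBayes, a fit of the compared groups alone, any probe of a gene in place of the brightest, and leaving out each array in turn.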

Additional observations from a re-analysis of the deposited data

How the results depend on the processing

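With 3 arrays a group, the calls in Pu.1 KD were the least stable. The number of the 10 genes called in Pu.1 KD, 4 in the fit reported, was 1 with the replicate number as a block, 2 with arrays scaled to the median and 2 with only the groups compared, and from 1 to 4 when 1 array was left out (2 or fewer without EV replicate 1 or 2, Gata2 KD replicate 2 or 3, or any Pu.1 KD array). It was 5 with the slide as a block and 6 with normexp, with trend and robust eBayes and with the deposited table. Over all 21 alternatives it ran from 1 to 6. Between the knockdowns it was 3 with scaling to the median in place of 5, and from 3 to 5 when 1 array was left out (3 without Gata2 KD replicate 3 or any Pu.1 KD array). In Gata2 KD it was 4 to 6 under all 21 alternatives and 5 whichever array was left out. Of the 60 other megakaryocyte genes, the count in Gata2 KD was 10 with the replicate block, 7 with scaling to the median, 9 with only the groups compared and from 7 to 15 when 1 array was left out (11, 7 and 9 without Gata2 KD replicates 1, 2 and 3), in place of 17. In Pu.1 KD it was 1, 3 and 1 under the same settings and from 2 to 6 when 1 array was left out (4 or fewer without EV replicate 2, Gata2 KD replicate 2 or any Pu.1 KD array), in place of 7. Over the array, the named genes called ran from 665 to 1617 in Gata2 KD (1131 in the fit reported), from 134 to 1099 in Pu.1 KD (570) and from 1278 to 2779 between the knockdowns (1956). The share of called probes that were higher in Gata2 KD than in EV was 57%, and 69.7% with scaling to the median. Same-numbered replicates did not all deviate together (correlations of their deviations from -0.552 to 0.652, 5 of 9 pairs above 0), so the replicate block pairs arrays by number alone, whereas arrays of 1 slide had correlations from -0.0408 to 0.719, 8 of 9 above 0; the member calls it removed were those of Gp1ba in Gata2 KD, of Pf4, Clec1b and Vwf in Pu.1 KD and of Pf4 between the knockdowns. Pf4 was added in Gata2 KD with the deposited table (adjusted p 0.0136), and Gp9 in Pu.1 KD with normexp (0.0308), trend and robust settings (0.0445) and the deposited table (0.0181). No change of the 10 genes turned its sign on the probe that stands for the gene. On the second Vwf probe the difference between the knockdowns, -0.01, became 0.12 with normexp, 0.09 with the deposited table and 0.05 without Gata2 KD replicate 3 (range with 1 array left out -0.05 to 0.05), none of them called. The cause of these shifts was not tested.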

Other observations

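For each of the 6 genes called against EV, the 3 named genes whose levels ran most like it were found over the 9 arrays among 15765 genes with a value on every array. All points share the same arrays and fall into 3 groups, so these correlations are a description of group patterns and carry no test. Pf4 ran most like Samd14 (Pearson r 0.983), Acrbp (0.974) and Casp4 (0.973), and Ppbp most like Arl5c (0.993), Trem2 (0.991) and Scpep1 (0.99). Gp5 ran most like Art4 (0.996), Fgf3 (0.992) and Sparc (0.991), and Gp1ba most like Tgfbr2 (0.995), Golm2 (0.978) and Lig4 (0.978). Clec1b ran most like F10 (0.993), Ahr (0.973) and Tnfaip2 (0.972), and Vwf most like Arhgef4 (0.984), Gsta3 (0.974) and Hspbap1 (0.973). Among the 10 genes themselves, Clec1b and Vwf ran most alike (0.955), Gp5 was closest to Gp9 (0.853) and Pf4 to Gp1bb (0.871). For Gp1ba the highest correlation with another of the 10 was -0.153, with Ppbp.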
